A study of Arabidopsis thaliana with 4 samples.

Results

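SAUR genes (small auxin-up RNA genes) are a family of short plant genes that auxin induces within minutes, and 55 of them were described in Arabidopsis thaliana seedlings grown in red light or in darkness. The 55 were chosen by locus identifier from the SAUR family, and they are 55 of the 27416 gene models with reads tabulated. The RefSeq annotation gave each of the 55 a SAUR name or description. The seedlings were wild type of the Col-0 ecotype, with no transgene or mutation named in the labels. On plates holding 1% sucrose, all seeds first had 4 days in the cold and 12 h under white light. The next 4 days were spent in red light of 60 μmol per square metre per second or in darkness, and the labels give a growth time of 4.5 days. The labels listed 2 samples in red light and 2 in darkness. The tables held a single pair of columns for each condition, a read count and an RPKM value (reads per kilobase of gene model per 1000000 reads). No replicate error, standard deviation or p-value could therefore be given for any comparison.

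Auxin releases auxin response factors from their repressors, and these factors switch SAUR genes on. Many SAUR proteins bind and inhibit phosphatases of the PP2C.D group. These phosphatases otherwise take an activating phosphate off the proton pumps of the plasma membrane. Active pumps acidify the cell wall, which loosens it and lets the cell elongate. The phytochrome-interacting factors (PIFs), which phytochromes remove in light, and the brassinosteroid factors BZR1 and BES1 also act on SAUR promoters. In seedlings moved from darkness to light, some SAUR genes are known to be induced in cotyledons while the same or other SAUR genes are repressed in the hypocotyl. The labels name seedlings and no organ. A difference between conditions can thus hold different shares of hypocotyl, cotyledon and root, and fewer cells of a type cannot be told apart from less RNA per cell.

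The red-light column held 33521717 reads and the dark column held 41106535 reads. The coding sequences of the 55 genes were 261 to 570 bases long, with a median of 339 bases. At that median length, 10 RPKM stood for 114 reads in red light and 139 reads in darkness. A gene was called when its level on the RPKM + 1 scale differed at least 2-fold and reached 10 RPKM in the higher condition. Ratios are RPKM in red light over RPKM in darkness, and the range after a ratio is its exact 95% counting interval, which covers counting error only. Among the 12625 genes that reached 10 RPKM somewhere, the share called was 8.69% for higher and 5.35% for lower in red light. Root markers (PYK10, EXPA7, COBL9, CASP1, RHD6 and PHT1;4) summed to 3524 RPKM in red light and 2811 RPKM in darkness, and 0 of 6 were called. That sum is mostly PYK10, at 3280 RPKM in red light and 2530 RPKM in darkness. The ratio was 1.01 for PHT1;4 and 0.747 to 0.871 for the other 4, and the median log2 change of the 6 was -0.21. Of the 3 green cotyledon markers, LHCB1.2 and CA1 were called higher and RBCS1A was not called. They summed to 14897 RPKM in red light and 11275 RPKM in darkness. That sum is mostly RBCS1A, at 11296 RPKM in red light and 10360 RPKM in darkness. The ratio was 1.09 for RBCS1A, 3.33 for LHCB1.2 and 5.66 for CA1. The 4 seed storage markers summed to 22.5 RPKM in red light and 2.26 RPKM in darkness, each under 10 RPKM. The part of these organ and reserve signals in the SAUR differences was not tested.

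Most SAUR genes that were well measured had lower levels in red light, while a few had far higher ones. Of the 55 genes, 36 reached 10 RPKM in at least one condition. Of these 36, 3 were called higher, 17 were called lower and 16 were not called, which is 8.33% higher and 47.2% lower, beside 8.69% and 5.35% of all genes. The median log2 change over all 55 was -0.78, beside 0.00 over all 27416 gene models. Over the 12625 genes at or above 10 RPKM the median log2 change was -0.11. Across the 55, 13 were above and 41 were below their dark level, and SAUR2 had no read in either condition. The counting interval lay wholly above 1 for 10 genes and wholly below 1 for 35.

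The summed SAUR signal differed less than the gene-by-gene picture. The 55 genes together held 13695 reads in red light and 19788 reads in darkness. As shares of all reads per condition, these stood in a ratio of 0.849 (0.830 to 0.867). SAUR14 alone supplied 13.1% of the SAUR reads in red light and 1.13% in darkness. Without SAUR14 the ratio of the sums was 0.746 (0.729 to 0.763).

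**Figure D1:**
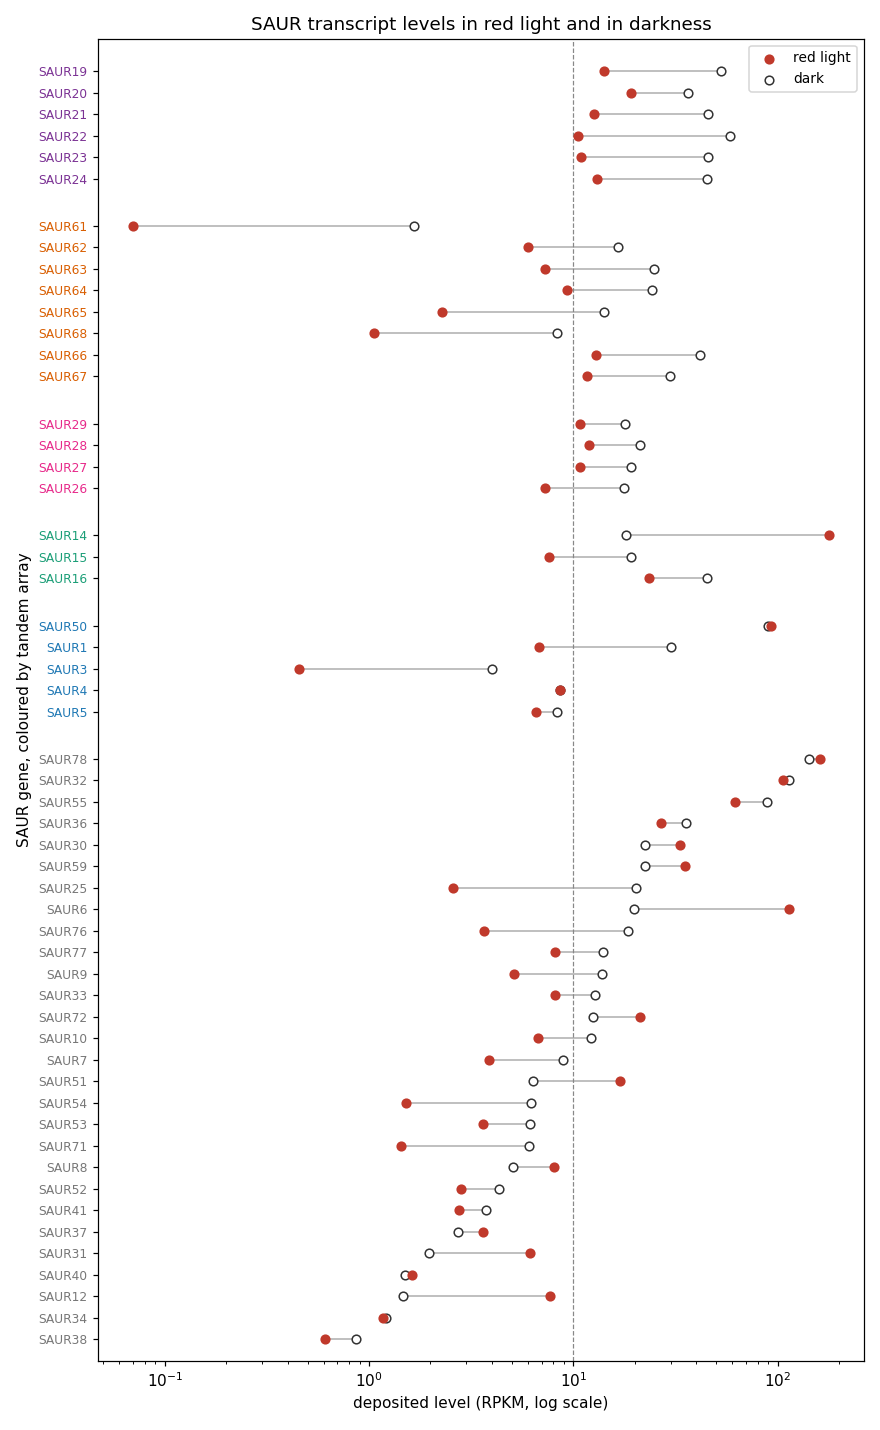
Level of each SAUR gene with reads (54 of 55) in RPKM on a log axis, with filled red points for red light and open points for darkness. Gene names are coloured by tandem array, the dashed line marks 10 RPKM, and each point is the single deposited value. SAUR14 and SAUR6 reached 178 and 113 RPKM in red light, while all genes of the SAUR19-24 array lay below 20 RPKM in red light and between 36.4 and 58.5 RPKM in darkness.

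The gene with the highest RPKM in red light was SAUR14, which ranked 26th of the 55 in darkness. SAUR14 (AT4G38840, chr4:18124978-18125559 on the minus strand, TAIR10.1) had 1791 reads (178 RPKM) in red light and 223 reads (18.1 RPKM) in darkness. Its ratio was 9.85 (8.56 to 11.4). SAUR6 (AT2G21210, chr2:9084628-9086029, minus strand) had 1129 reads (113 RPKM) in red light and 243 reads (19.9 RPKM) in darkness, a ratio of 5.70 (4.96 to 6.57). It ranked 3rd in red light and 22nd in darkness. SAUR14 and SAUR6 lie on different chromosomes, and each is the closest relative of the other by coding sequence among the annotated SAUR genes, at 70.8% identity. The third gene called higher was SAUR51 (AT1G75580, chr1:28377377-28378310, plus strand). It had 186 reads (17.0 RPKM) in red light and 85 reads (6.32 RPKM) in darkness, a ratio of 2.68 (2.07 to 3.51).

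The promoters of SAUR14, SAUR6 and SAUR51 are shown because these are the only genes of the family called higher, and that of SAUR15 because it faces SAUR14 across the same intergenic stretch and was called lower. Each line gives the 250 bases before the start of the transcript that the files count, 5′ to 3′ on the gene's own strand, from RefSeq TAIR10.1. For SAUR6 a longer annotated transcript starts 120 bases further upstream, so that many bases of its printed stretch, with the site nearer the start, lie inside the gene span given above. Capitals mark CACATG or its reverse complement CATGTG, the E-box that PIF proteins can bind.
SAUR14, chr4:18125560-18125809, minus strand: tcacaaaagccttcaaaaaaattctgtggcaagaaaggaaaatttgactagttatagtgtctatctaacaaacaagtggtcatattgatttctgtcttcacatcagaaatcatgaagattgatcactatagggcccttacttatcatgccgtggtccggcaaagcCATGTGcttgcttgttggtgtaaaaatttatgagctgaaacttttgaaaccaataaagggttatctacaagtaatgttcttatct
SAUR15, chr4:18125807-18126056, plus strand: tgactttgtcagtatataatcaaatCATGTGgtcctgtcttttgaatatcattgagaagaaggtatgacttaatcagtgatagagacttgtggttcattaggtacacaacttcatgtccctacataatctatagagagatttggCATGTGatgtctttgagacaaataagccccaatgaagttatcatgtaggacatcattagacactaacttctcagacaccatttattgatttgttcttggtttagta
SAUR6, chr2:9085910-9086159, minus strand: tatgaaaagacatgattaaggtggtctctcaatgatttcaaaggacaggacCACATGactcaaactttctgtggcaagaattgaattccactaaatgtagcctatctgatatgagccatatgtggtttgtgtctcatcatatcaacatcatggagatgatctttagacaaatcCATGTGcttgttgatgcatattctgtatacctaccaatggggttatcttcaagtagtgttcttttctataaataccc
SAUR51, chr1:28377127-28377376, plus strand: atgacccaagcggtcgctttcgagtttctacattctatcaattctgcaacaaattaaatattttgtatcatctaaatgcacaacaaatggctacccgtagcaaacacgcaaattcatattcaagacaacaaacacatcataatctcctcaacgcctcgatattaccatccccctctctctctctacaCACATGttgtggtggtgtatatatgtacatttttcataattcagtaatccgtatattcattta
The E-box of SAUR14 began 85 bases before its start and the one of SAUR51 began 63 bases before. SAUR6 had sites at 199 and 77 bases before its start. SAUR15 had sites at 225 and 106 bases before its start, and another in the first 50 bases after it, past the printed stretch.

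SAUR14 and SAUR15 stand head to head on chromosome 4, with 497 bases between their transcript starts, and moved in opposite directions. SAUR15 (AT4G38850, chr4:18126057-18126829, plus strand), known as SAUR-AC1, had 69 reads (7.62 RPKM) in red light and 212 reads (19.1 RPKM) in darkness. Its ratio was 0.399 (0.2996 to 0.526). SAUR16 (AT4G38860, chr4:18130237-18131284), next along the chromosome, had 250 reads (23.5 RPKM) in red light and 591 reads (45.2 RPKM) in darkness. Its ratio of 0.519 (0.446 to 0.602) missed the 2-fold rule. The 3 neighbours SAUR14, SAUR15 and SAUR16 summed to 2110 reads in red light and 1026 reads in darkness, a ratio of 2.52 (2.34 to 2.72). SAUR15 and SAUR16 without SAUR14 summed to 319 reads in red light and 803 reads in darkness, a ratio of 0.487 (0.427 to 0.555). The direction of this array's sum was thus that of SAUR14 alone. Coding sequences within the array were 49.4% to 59.6% identical, and SAUR14 shared 2.22% of its 31-base words with any other place in the genome.

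A similar split was found around SAUR6 on chromosome 2. SAUR7 (AT2G21200), whose annotated span overlaps that of the longer SAUR6 transcript on the same strand, had 34 reads (3.89 RPKM) in red light and 96 reads (8.95 RPKM) in darkness. Its ratio was 0.434 (0.285 to 0.648), against 5.70 for SAUR6. SAUR12 (AT2G21220), on the other side of SAUR6, had 81 reads (7.67 RPKM) in red light and 19 reads (1.47 RPKM) in darkness, a ratio of 5.23 (3.14 to 9.13). SAUR7 and SAUR12 stayed under 10 RPKM and were not eligible for a call. SAUR12 is the closest relative of SAUR16, at 85.5% coding identity. The log2 change was 1.81 for SAUR12 and -0.92 for SAUR16.

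The SAUR19-24 array on chromosome 5 was lower throughout in red light. Genes of this array are known to promote hypocotyl cell expansion through the PP2C.D phosphatases and the proton pumps. The array spans chr5:5962773-5984308, and all 6 of its genes were lower in red light than in darkness, 5 of them past the 2-fold rule. The 6 genes lay between 10.5 and 19.2 RPKM in red light and between 36.4 and 58.5 RPKM in darkness, so the ranges of the conditions did not meet. SAUR22 (AT5G18050) had 96 reads (10.5 RPKM) in red light and 656 reads (58.5 RPKM) in darkness, a ratio of 0.179 (0.143 to 0.223). SAUR23 (AT5G18060) had 100 reads (10.9 RPKM) in red light and 510 reads (45.4 RPKM) in darkness, a ratio of 0.240 (0.192 to 0.298). These are the neighbours of the array that stand head to head closest to each other, with 692 bases between their starts. SAUR19 (AT5G18010) had 130 reads (14.2 RPKM) in red light and 595 reads (53.0 RPKM) in darkness, a ratio of 0.268. SAUR21 (AT5G18030) had 113 reads (12.6 RPKM) in red light and 503 reads (45.8 RPKM) in darkness, a ratio of 0.275. SAUR24 (AT5G18080) had 120 reads (13.1 RPKM) in red light and 508 reads (45.3 RPKM) in darkness, a ratio of 0.290. The ratios of SAUR19, SAUR21 and SAUR24 had overlapping counting intervals, which ran from 0.2199 to 0.354 in all. SAUR20 (AT5G18020) was the least changed, with 178 reads (19.2 RPKM) in red light and 413 reads (36.4 RPKM) in darkness. Its ratio of 0.529 (0.441 to 0.632) did not overlap the interval of any other gene of the array.

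Summed over the SAUR19-24 array there were 737 reads in red light and 3185 reads in darkness, a ratio of 0.284 (0.262 to 0.308). The coding sequences were 87.3% to 95.2% identical. SAUR19, SAUR21, SAUR23 and SAUR24 had 29.2% to 58.0% of their 31-base words elsewhere in the genome. The sources do not say how reads that match several copies were shared out, so the array sum is firmer than the split among its genes. SAUR22, with 9.88% of its words shared, had the lowest ratio of the array, and SAUR20, with 23.6%, had the highest.

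The SAUR61-68 array on chromosome 1 showed the same direction in every gene. Its members include SAUR63, known to promote hypocotyl and floral organ elongation. The array spans chr1:10301377-10323239, and each of its 8 genes had a counting interval wholly below 1. All 6 genes that reached 10 RPKM were called lower. SAUR66 (AT1G29500) had 176 reads (12.9 RPKM) in red light and 698 reads (41.6 RPKM) in darkness, a ratio of 0.309 (0.261 to 0.365). SAUR67 (AT1G29510) had 170 reads (11.7 RPKM) in red light and 527 reads (29.7 RPKM) in darkness, a ratio of 0.396. SAUR63 (AT1G29440) had 104 reads (7.28 RPKM) in red light and 434 reads (24.8 RPKM) in darkness, a ratio of 0.294. These had the highest dark levels of the array, together with SAUR64. SAUR64 (AT1G29450), which has an annotated intron, had 133 reads (9.31 RPKM) in red light and 424 reads (24.2 RPKM) in darkness, a ratio of 0.385. SAUR62 (AT1G29430), known from pollen tube growth, had 86 reads (6.02 RPKM) in red light and 291 reads (16.6 RPKM) in darkness, a ratio of 0.362. The largest difference among the called genes of the array was that of SAUR65. SAUR65 (AT1G29460) had 34 reads (2.27 RPKM) in red light and 259 reads (14.1 RPKM) in darkness, a ratio of 0.161 (0.109 to 0.231). SAUR61 (AT1G29420) had 1 read in red light and 29 in darkness, and SAUR68 (AT1G29490) had 11 in red light and 106 in darkness. Both were under 10 RPKM in each condition.

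Over the 8 genes of the SAUR61-68 array there were 715 reads in red light and 2768 reads in darkness, a ratio of 0.317 (0.291 to 0.344). SAUR62, SAUR63 and SAUR67 had 32.1% to 43.7% of their 31-base words elsewhere in the genome. SAUR62 was 97.0% identical to SAUR75 (AT5G27780), an annotated SAUR gene outside the 55 that had 29 reads in red light and 77 reads in darkness. The coding sequence of SAUR63 lies wholly, and that of SAUR61 to 61.7%, within another annotated gene on the opposite strand that has no values here. The sources do not say whether counting used strand.

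**Figure D2:**
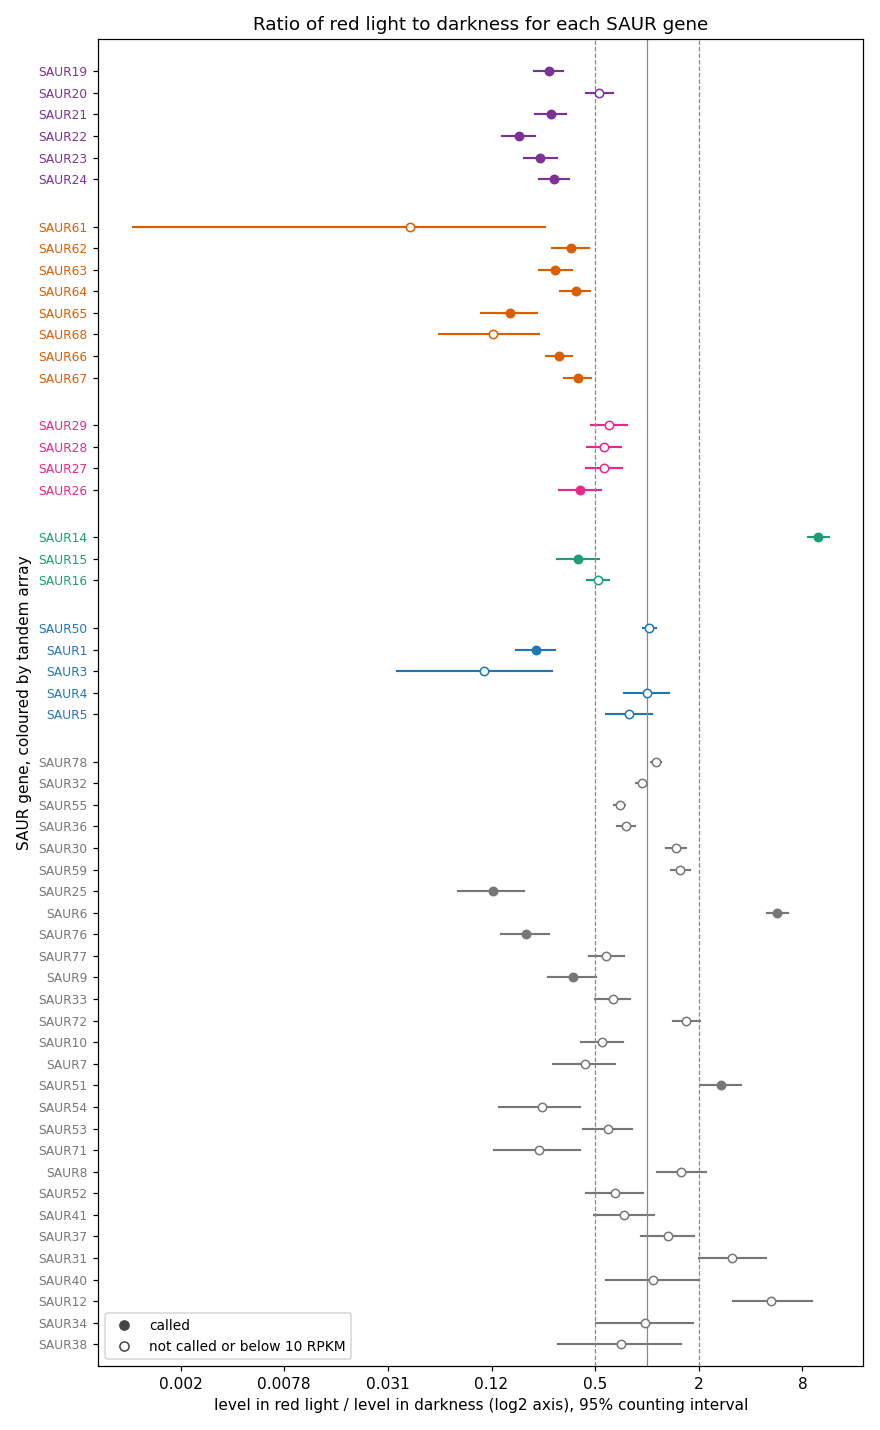
Ratio of the level in red light to the level in darkness for each SAUR gene with reads, on a log2 axis, with bars for the exact 95% counting interval. Filled points passed the 2-fold rule with at least 10 RPKM, dashed lines mark ratios of 0.5 and 2, and colours mark the arrays as in the plot of levels. The SAUR19-24 and SAUR61-68 arrays lie wholly left of 1, SAUR14 and SAUR6 lie at 9.85 and 5.70, and the genes outside the arrays lie on both sides.

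The SAUR26-29 array on chromosome 3, known for natural variation in growth responses to temperature, was lower by a smaller factor. Its 4 genes, in chr3:976715-983768, had ratios from 0.411 to 0.602, and only SAUR26 was called. SAUR26 (AT3G03850) had 69 reads (7.30 RPKM) in red light and 206 reads (17.8 RPKM) in darkness, a ratio of 0.411 (0.308 to 0.542). SAUR27 (AT3G03840) had 104 reads (10.8 RPKM) in red light and 227 reads (19.2 RPKM) in darkness, and SAUR28 (AT3G03830) had 112 reads (12.0 RPKM) in red light and 244 reads (21.3 RPKM) in darkness. These head-to-head neighbours, 509 bases apart, had nearly equal ratios of 0.562 and 0.563. SAUR29 (AT3G03820) had 105 reads (10.8 RPKM) in red light and 214 reads (17.9 RPKM) in darkness, a ratio of 0.602. The intervals of the 4 ratios overlapped. The array summed to 390 reads in red light and 891 reads in darkness, a ratio of 0.537 (0.475 to 0.605), and its coding sequences were 77.3% to 86.3% identical.

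The array of SAUR50 and SAUR1 to SAUR5 on chromosome 4 (chr4:16582183-16599568) was mixed. SAUR50 (AT4G34760), known to promote cotyledon opening in light, had 1009 reads (92.9 RPKM) in red light and 1198 reads (89.95 RPKM) in darkness. Its ratio of 1.03 (0.949 to 1.12) included 1. SAUR1 (AT4G34770), its next neighbour in the array, had 72 reads (6.82 RPKM) in red light and 390 reads (30.1 RPKM) in darkness, a ratio of 0.226 (0.174 to 0.292). SAUR1 was called lower and SAUR50 was not called. The other genes of the array were under 10 RPKM. SAUR3 (AT4G34790) had 5 reads in red light and 54 in darkness, a ratio of 0.114 (0.0354 to 0.282), while SAUR4 (AT4G34800) and SAUR5 (AT4G34810) had ratios of 0.996 and 0.788 whose intervals included 1. SAUR2 (AT4G34780) had 0 reads in both conditions, against a limit of 3 reads that a count of 0 allows. The array summed to 1238 reads in red light and 1852 reads in darkness, a ratio of 0.820 (0.762 to 0.881). Without SAUR50 the sums were 229 reads in red light and 654 reads in darkness, a ratio of 0.429 (0.368 to 0.4999).

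**Figure D3:**
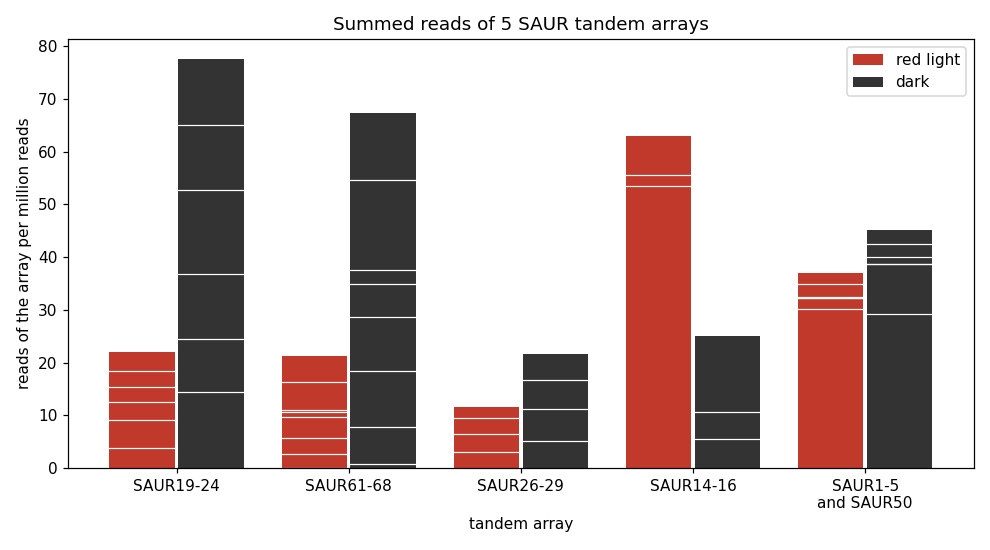
Summed reads of each tandem array per 1000000 reads, in red light (red bars) and darkness (dark bars), with white lines parting each bar into its genes in order of locus. The SAUR19-24 array stood at 22.0 in red light and 77.5 in darkness, whereas the SAUR14-16 array stood at 62.9 in red light and 25.0 in darkness, most of the red-light bar being SAUR14.

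The 27 genes in the 5 arrays differed more between conditions than the 28 elsewhere. Of the 21 array genes at or above 10 RPKM, 1 was called higher (4.76%) and 14 were called lower (66.7%). The median log2 change over all 27 was -1.29. Of the 15 genes outside the arrays at or above 10 RPKM, 2 were called higher (13.3%) and 3 were called lower (20%). The median over all 28 was -0.27. Among all genes at or above 10 RPKM, 8.69% were called higher and 5.35% were called lower. The array genes summed to 5190 reads in red light and 9722 reads in darkness, a ratio of 0.655 (0.633 to 0.677). Of these reads SAUR14 alone gave 1791 in red light and 223 in darkness. The genes outside summed to 8505 reads in red light and 10066 reads in darkness, a ratio of 1.04 (1.01 to 1.07). Of these reads SAUR6 alone gave 1129 in red light and 243 in darkness. By gene, 17 of the 28 were below their dark level and 11 were above it.

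Outside the arrays, SAUR25, SAUR76 and SAUR9 were called lower. SAUR25 (AT4G13790, chr4:7999516-8000372) had 24 reads (2.57 RPKM) in red light and 232 reads (20.2 RPKM) in darkness. Its ratio of 0.127 (0.0797 to 0.193) was the lowest among the called members. SAUR76 (AT5G20820, chr5:7046747-7047446), whose product is known to bind ethylene receptors, had 47 reads (3.65 RPKM) in red light and 292 reads (18.5 RPKM) in darkness, a ratio of 0.197 (0.142 to 0.269). SAUR9 (AT4G36110, chr4:17089934-17090873) had 54 reads (5.11 RPKM) in red light and 179 reads (13.8 RPKM) in darkness, a ratio of 0.370 (0.268 to 0.504). SAUR10 (AT2G18010), the closest relative of SAUR9 at 73.8% coding identity and known as a growth gene of stems, had 76 reads (6.69 RPKM) in red light and 170 reads (12.2 RPKM) in darkness. Its ratio of 0.548 (0.413 to 0.723) was not called.

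The 4 SAUR genes with the highest RPKM in darkness, SAUR78, SAUR32, SAUR50 and SAUR55, differed by less than 2-fold, whereas SAUR22, SAUR19, SAUR21, SAUR23 and SAUR24 at ranks 5 to 9 were called lower. SAUR78 (AT1G72430), a relative of SAUR76, ranked 2nd in red light and 1st in darkness. It had 1940 reads (161 RPKM) in red light and 2107 reads (142 RPKM) in darkness, a ratio of 1.13 (1.06 to 1.201). SAUR32 (AT2G46690), known to act on the apical hook, had 1306 reads (106 RPKM) in red light and 1717 reads (114 RPKM) in darkness, a ratio of 0.933 (0.867 to 1.00). SAUR55 (AT5G50760) had 1140 reads (61.6 RPKM) in red light and 2017 reads (88.9 RPKM) in darkness, a ratio of 0.693 (0.644 to 0.746). SAUR36 (AT2G45210), known from leaf growth and senescence and ranked 13th in darkness, had 439 reads (26.8 RPKM) in red light and 716 reads (35.6 RPKM) in darkness, a ratio of 0.752 (0.666 to 0.848). SAUR78, SAUR32, SAUR50 and SAUR55 held ranks 2, 4, 5 and 6 in red light.

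SAUR30, SAUR59 and SAUR72 were higher in red light by less than 2-fold. SAUR30 (AT5G53590) had 480 reads (33.4 RPKM) in red light and 398 reads (22.6 RPKM) in darkness, a ratio of 1.48 (1.29 to 1.69). SAUR59 (AT3G60690) had 606 reads (35.2 RPKM) in red light and 475 reads (22.5 RPKM) in darkness, a ratio of 1.56 (1.39 to 1.77). SAUR72 (AT3G12830) had 283 reads (21.2 RPKM) in red light and 205 reads (12.5 RPKM) in darkness, a ratio of 1.69 (1.41 to 2.04). SAUR77 and SAUR33 differed in the other direction, also without a call. SAUR77 (AT1G17345) had 108 reads (8.14 RPKM) in red light and 228 reads (14.01 RPKM) in darkness, a ratio of 0.581. SAUR33 (AT3G61900) had 112 reads (8.13 RPKM) in red light and 217 reads (12.8 RPKM) in darkness, a ratio of 0.633.

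The 19 genes below 10 RPKM in both conditions were SAUR2, SAUR3, SAUR4, SAUR5, SAUR7, SAUR8, SAUR12, SAUR31, SAUR34, SAUR37, SAUR38, SAUR40, SAUR41, SAUR52, SAUR53, SAUR54, SAUR61, SAUR68 and SAUR71. They ran up to 8.58 RPKM in red light and up to 8.95 RPKM in darkness. Among those not yet given, SAUR31 (AT4G00880) had 76 reads in red light and 30 in darkness, a ratio of 3.11 (2.01 to 4.91). Its coding sequence lies to 93.5% within another annotated gene on the opposite strand. SAUR54 (AT1G19830) had 18 reads in red light and 90 in darkness, a ratio of 0.245 (0.139 to 0.410), and SAUR71 (AT1G56150) had 16 in red light and 83 in darkness, a ratio of 0.236 (0.129 to 0.407). SAUR54 is the closest relative of SAUR51 at 77.1% coding identity, and SAUR71 is the closest relative of SAUR72 at 63.0%. In both pairs the relatives stood on opposite sides of 1. SAUR8 (AT2G16580), the closest relative of SAUR50 at 82.3% coding identity, had 88 reads in red light and 68 in darkness, a ratio of 1.59 (1.14 to 2.21). SAUR52 (AT1G75590) had 44 reads in red light and 83 in darkness, and SAUR53 (AT1G19840) had 56 in red light and 116 in darkness. These closest relatives, at 81.9% identity, had like ratios of 0.650 and 0.592. The intervals of SAUR34 (AT4G22620), SAUR37 (AT4G31320), SAUR38 (AT2G24400), SAUR40 (AT1G79130) and SAUR41 (AT1G16510) included 1, with 11 to 69 reads in red light and 19 to 68 reads in darkness.

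The promoters of SAUR22, SAUR65 and SAUR25 are shown because these had the lowest ratios among the called genes of the SAUR19-24 array, of the SAUR61-68 array and outside the arrays. As above, each line holds the 250 bases before the start on the gene's strand, from RefSeq TAIR10.1, with CACATG or CATGTG in capitals.
SAUR22, chr5:5975088-5975337, minus strand: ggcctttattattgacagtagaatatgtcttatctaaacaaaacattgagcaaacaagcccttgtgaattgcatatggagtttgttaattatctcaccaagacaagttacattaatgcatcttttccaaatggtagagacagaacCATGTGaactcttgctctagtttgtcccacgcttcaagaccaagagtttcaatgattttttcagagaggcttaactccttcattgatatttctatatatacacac
SAUR65, chr1:10308164-10308413, minus strand: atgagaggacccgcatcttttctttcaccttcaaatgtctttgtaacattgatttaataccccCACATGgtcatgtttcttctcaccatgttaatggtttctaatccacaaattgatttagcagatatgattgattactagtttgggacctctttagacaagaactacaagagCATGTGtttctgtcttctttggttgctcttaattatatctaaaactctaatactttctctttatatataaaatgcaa
SAUR25, chr4:8000373-8000622, minus strand: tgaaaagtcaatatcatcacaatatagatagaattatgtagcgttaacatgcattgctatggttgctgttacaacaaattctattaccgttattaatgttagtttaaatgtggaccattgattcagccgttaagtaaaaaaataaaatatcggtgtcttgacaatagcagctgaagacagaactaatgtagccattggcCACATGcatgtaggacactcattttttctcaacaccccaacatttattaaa
The site began 105 bases before the start in SAUR22 and 51 bases before in SAUR25. SAUR65 had sites at 187 and 77 bases before its start. A longer annotated transcript of SAUR65 starts 83 bases further upstream, so the site at 77 bases lies inside the gene span.

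The E-box was far more frequent among the SAUR promoters than among promoters at large. Windows from 250 bases before to 50 bases after the start were searched on both strands, with the start of the transcript that the files count. CACATG was present in 27 of the 55 windows (49.1%, 41 sites), against 12.7% of 26709 promoters of all genes. Of the 20 called SAUR genes, 17 held the site, namely 3 of the 3 called higher and 14 of the 17 called lower. It was present in 3 of the 16 that were not called, namely SAUR27, SAUR28 and SAUR29, and in 7 of the 19 below 10 RPKM. The called genes without it were SAUR23, SAUR24 and SAUR76. For SAUR6, SAUR8, SAUR20, SAUR61 and SAUR65 a longer transcript starts further upstream, and windows set on the outermost start gave the same counts, against 12.97% of all promoters. Across all genes the share was 13.4% of those called higher, 18.1% of those called lower and 12.5% of those not called.

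The site followed the arrays in part, whose genes are similar copies and so are not independent. It was present in 8 of 8 windows of the SAUR61-68 array, 4 of 4 of SAUR26-29, 3 of 6 of SAUR19-24, 4 of 6 of SAUR50 and SAUR1-5, and 2 of 3 of SAUR14-16. Outside the arrays it was present in 6 of 28 windows, those of SAUR6, SAUR51, SAUR25, SAUR9, SAUR8 and SAUR34. There it was found in 4 of the 5 called genes, in 0 of the 10 that were not called and in 2 of the 13 below 10 RPKM. This contrast depends on the minimum. With 5 RPKM, SAUR54, SAUR71, SAUR7, SAUR12 and SAUR31 were also called outside the arrays, and none of them held the site. Of the 41 sites, 36 began before the start, 18 of them within 100 bases of it, and the median site began 85 bases before. The 27 genes with the site had a median log2 change of -1.28, and the 28 without it had -0.44. Their summed reads hardly differed in ratio, at 0.842 (0.812 to 0.873) with the site and 0.853 (0.830 to 0.877) without it. The sum with the site joins changes in opposite directions. SAUR14 and SAUR6 gave 1791 and 1129 of its 5033 reads in red light. In darkness they gave 223 and 243 of its 7333 reads. Among all genes the median log2 change was 0.00 both with and without the site. Genes with no read in either condition count as 0 there, so this median can hide a difference. Of all genes at or above 10 RPKM, 7.59% with the site and 5.09% without it were called lower. The shares called higher were 9.08% with the site and 8.70% without it.

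**Figure D4:**
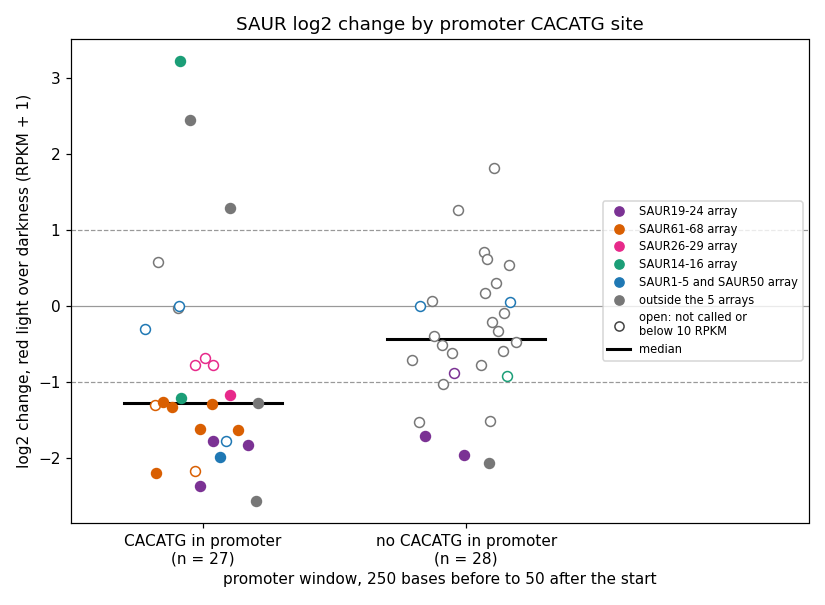
Log2 change (red light over darkness, RPKM + 1) of the SAUR genes with a CACATG site in the promoter window (27 genes, left) and without one (28 genes, right). Points are coloured by array, filled where the gene was called, and black lines mark the medians of -1.28 and -0.44. The 3 genes called higher and 14 of the 17 called lower stand in the left group.

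The other motifs searched, on both strands and with overlaps between motifs allowed, had shares over the 55 close to or below those in all promoters. The G-box CACGTG was found in 1 of 55 windows, that of SAUR59, against 7.84% of all promoters. The auxin response element TGTCTC was found in 9 of 55 (16.4%), against 14.5% of all promoters. By call it was found in 1 of the 3 higher, 5 of the 17 lower (29.4%) and 1 of the 16 not called (6.25%), beside 12.8%, 13.6% and 13.3% of all genes with those calls. Its variant TGTCGG was found in 2 of 55 (3.64%, against 5.15%), and the brassinosteroid element CGTGCG in 1 of 55 (1.82%, against 1.98%). A match is a description of letters in the window.

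Of 23 further genes that the annotation describes as SAUR or SAUR-like, 5 reached 10 RPKM, 0 were called higher and 2 were called lower. The share called lower was 40% of the 5, beside 5.35% of all genes. SAUR17 (AT4G09530), known to act in the apical hook in darkness, had 6 reads (0.574 RPKM) in red light and 132 reads (10.3 RPKM) in darkness, a ratio of 0.0557 (0.0201 to 0.125). SAUR13 (AT4G38825), which lies beside SAUR14, had 14 reads (1.55 RPKM) in red light and 135 reads (12.2 RPKM) in darkness, a ratio of 0.127 (0.0677 to 0.221). The coding sequence of SAUR13 lies wholly within a gene on the opposite strand. The median log2 change of the 23 was -0.09, and 5 of their windows held the E-box.

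Of the genes for partners of SAUR proteins that reached 10 RPKM, only PP2C.D1 was called. Among all genes at that level the share called was 8.69% for higher and 5.35% for lower. Of the 9 PP2C.D phosphatases, all above 10 RPKM, 1 was called lower and 0 were called higher, with a median log2 change of -0.13. PP2C.D1 had 1230 reads (33.0 RPKM) in red light and 3650 reads (79.8 RPKM) in darkness, a ratio of 0.413 (0.387 to 0.441). The 9 summed to 16668 reads in red light and 25897 reads in darkness, a ratio of 0.789 (0.774 to 0.805). Of the 11 plasma membrane proton pumps, 4 reached 10 RPKM and 0 were called. The most abundant pump, AHA2, stood at 537 RPKM in red light and 821 RPKM in darkness, and AHA1 stood at 254 RPKM in red light and 378 RPKM in darkness. The 11 pumps summed to 84063 reads in red light and 153775 reads in darkness, a ratio of 0.670 (0.665 to 0.676). That sum is mostly AHA2 and AHA1, with 53029 and 24311 reads in red light and 99475 and 44331 in darkness. The ratio was 0.876 for AHA3 and 0.819 for AHA11, the other pumps at or above 10 RPKM. Of the 11, 9 were below their dark level and 1 was above it, AHA10 at a ratio of 2.42. By summed reads, the phosphatases and the pumps were both further from 1 than the 0.849 of the 55 SAUR genes. That SAUR sum holds changes in both directions. Without SAUR14 it stood at 0.746, further from 1 than the sum of the phosphatases. Besides PP2C.D1, PP2C.D2 and PP2C.D7 had ratios of 0.506 and 0.556, and the other phosphatases ran from 0.908 to 1.22. Of the 4 TMK receptor-like kinases, which act on the pumps in response to auxin, 3 reached 10 RPKM and 0 were called.

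Of 12 transcription factors known to act on SAUR promoters, 9 reached 10 RPKM, 3 were called higher and 1 was called lower. Of the 9 this is 33.3% higher and 11.1% lower, beside 8.69% and 5.35% of all genes. ARF8, an auxin response factor, stood at 19.5 RPKM in red light and 8.82 RPKM in darkness, a ratio of 2.21 (2.04 to 2.40). PIF4 stood at 61.1 RPKM in red light and 13.6 RPKM in darkness, and PIF5 at 67.3 RPKM in red light and 20.2 RPKM in darkness. PIF3 stood at 17.4 RPKM in red light and 46.9 RPKM in darkness, a ratio of 0.371 (0.344 to 0.399). PIF7 stayed under 10 RPKM, with 327 reads (8.86 RPKM) in red light and 18 reads (0.398 RPKM) in darkness. Its ratio was 22.3 (13.9 to 38.1). Of the 12 factors, 7 were above and 5 were below their dark level. These are transcript levels, and PIF protein was not measured.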

How the data were processed

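Polyadenylated RNA of seedlings was sequenced on the Illumina platform, per the labels' protocols. The authors deposited, for each condition, a read count per gene model (estimated counts, with 0.5 where no read was found) and RPKM, per the file headers. Per the submitters' processing notes, reads were placed on TAIR10. Not given in the sources used here: aligner, counting of multiply matching reads and use of strand. Whether a column pools the 2 labelled samples or holds 1 of them is also not given, so edgeR's test planned for counts could not be used. The gene models match coding lengths of RefSeq TAIR10.1 for 53 of the 55 SAUR genes, so UTRs are left out. SAUR2 had no read, and the length behind the values of SAUR5 differed.

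Counts of 0.5 were set to 0, and estimated counts were otherwise used as deposited. Calls used log2(RPKM + 1), at least 2-fold and at least 10 RPKM in the higher condition, over all 27416 gene models. This scale understates the change of low genes. Ratios have exact Clopper-Pearson 95% intervals of the reads, which cover counting error only, as PCR copies cannot be told from separate molecules. Every SAUR gene of the 55 at or above 10 RPKM was named with reads and RPKM, the lower ones with their range, and genes of other lists where called or, for organ markers, as sums. Named lower genes, pumps and factors with values beyond that were chosen after their values were seen. The members and lists were chosen with earlier results of these data known. Coding identity came from global alignments, and shared sequence from 31-base words searched in the whole genome. Alternatives were TMM (edgeR 4.0.16) and DESeq2 1.42.0 size factors, upper-quartile factors, totals without organelle genes, other pseudocounts, minimums and fold thresholds. Software was Python 3.11.15 with Biopython 1.88, matplotlib 3.10.9, scipy 1.17.1, pandas 2.3.3 and numpy 2.4.6, beside R 4.3.3. The calling was tested on simulated data.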

Additional observations from a re-analysis of the deposited data

How the results depend on the processing

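The counts of 3 higher and 17 lower SAUR genes were the same under TMM, DESeq2, upper-quartile and organelle-free totals, which shifted log2 changes by at most 0.07, and under a pseudocount of 0.1. A pseudocount of 5 gave 2 higher, 13 lower and a median log2 change of -0.54. With no minimum 5 were higher and 23 lower, beside 1460 and 821 of all genes. With 5 RPKM 5 were higher and 21 lower, beside 1279 and 748 of all genes. With 20 RPKM 2 were higher and 11 lower, beside 897 and 551 of all genes. A 4-fold threshold left 4 lower, beside 124 lower of all genes against 676. Requiring the whole counting interval beyond 2-fold left 14 lower. Without the 7 SAUR genes that share sequence, 10 were lower and the median was -0.61, since 7 fewer genes were counted. Without the 7 the log2 ratio of summed reads was -1.67 for the SAUR19-24 array (-1.82 with them) and -1.80 for SAUR61-68 (-1.66 with them). SAUR20 and SAUR22, the genes left in the SAUR19-24 array, still had 23.6% and 9.88% of their words shared. As alternatives chosen after seeing the data, leaving out SAUR50 gave -1.22 for its array (-0.29 with it), and leaving out SAUR14 turned the SAUR14-16 array to -1.04 (1.33 with it), as the sums then lack their largest gene. Windows on the outermost annotated start, also added later, gave 27 promoters with CACATG. No called SAUR gene changed sign, but the settings fixed this in advance. Scalings shifted log2 changes by at most 0.07, whereas a call needed 2-fold, and the other alternatives cannot change a gene's sign. No paired analysis was possible because each condition has 1 column and the columns carry no replicate number. Leaving out a replicate could not be run for the same reason. Genes below 10 RPKM rest on few reads, and their ratios are limited by depth.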
